A study of Mus musculus with 20 samples.

Results

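Platr18, listed in the deposited table under the name Lncenc1, is a long intergenic noncoding RNA of mouse embryonic stem cells that was raised or silenced in a mammary epithelial cell line, NMuMG. The levels of 10 pluripotency factors were read beside it: Pou5f1, Nanog, Sox2, Esrrb, Zfp42, Tfcp2l1, Lin28a, Lin28b, Klf4 and Klf5. They were found by gene name among 54986 genes, and each name had 1 row. Of the 10, only Tfcp2l1, Klf4 and Klf5 had at least 1 CPM (count per 1000000 reads) in at least 2 of the 20 libraries, the filter that left 17106 genes for testing. The other 7 factors had between 0 and 13 reads in any library, also where Platr18 was highest, and are described by their reads.

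RNA-seq libraries were made in duplicate from 10 conditions, all of them NMuMG or lines derived from it and all grown in serum-containing DMEM. NMuMG is an epithelial line from a normal mouse mammary gland. The first set of conditions was untreated NMuMG, NMuMG with TGFβ (shown as NMuMG TGFb), NMuMG carrying an shRNA against hnRNP E1, the product of Pcbp1 (E1KD), and the lines M1P and L1P, which were recovered from the primary tumor and from the lung metastases that E1KD cells formed in immunodeficient NOD/SCID mice and were then cultured. The second set was NMuMG with an empty vector (Empty vector), 2 single clones of NMuMG overexpressing Platr18 (Platr18 clone 12 and Platr18 clone 16), and 2 lines of E1KD, of which E1KD SCR expresses a scrambled shRNA and E1KD Platr18 KD an shRNA that targets Platr18. E1KD, M1P, L1P, E1KD SCR and E1KD Platr18 KD thus all carry the hnRNP E1 shRNA. GEO's labels give neither the dose nor the duration of TGFβ and do not say whether 2 replicates were separate cultures, so the p-values measure only the spread between these libraries, which may be technical.

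The 2 sets were also 2 kinds of library. Levels of mt-Rnr2, a mitochondrial rRNA, ran from 333 to 492 CPM in the 10 libraries of the first kind and from 113874 to 165149 CPM in the 10 of the second, so every comparison was made within a kind. The libraries had been scaled to between 50.8 M and 60.02 M reads (M, 1000000) in the first kind and between 63.0 M and 147 M in the second, and 3 reads on a gene were worth between 0.0204 and 0.0591 CPM. E1KD replicate 1 stood apart from its partner, with a median log2 ratio of 0.29 over the tested genes, and the results that turn on it are also given without it. Markers of luminal mammary epithelium were present in part: Krt8, Krt18, Krt19 and Cdh1 were above 10 CPM in every condition. Krt7 averaged between 0.50 CPM (E1KD Platr18 KD) and 18.7 CPM (NMuMG). Epcam and Elf5, of the same list, had at most 0.0168 and 0.267 CPM in any library. Basal markers (Krt5, Krt14, Trp63 and Acta2) summed to at most 2.90 CPM in any library, immune markers to at most 3.48 CPM, mostly Cd68, endothelial markers to at most 0.542 CPM and lung markers to at most 0.119 CPM.

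In embryonic stem cells, Pou5f1 (Oct4), Sox2 and Nanog are transcription factors that bind each other's regulatory DNA and keep the cell pluripotent. Esrrb, Tfcp2l1, Klf4 and Klf5 belong to the naive layer of the same network, which LIF and Stat3 signalling feeds, and Zfp42 (Rex1) is a classical marker of the naive state. Lin28a and Lin28b bind the precursors of let-7 microRNAs and block their maturation. Klf4, Klf5 and Tfcp2l1 are not restricted to stem cells, since all 3 are also known from epithelia.

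The promoters of Tfcp2l1 and Lncenc1 are shown because Tfcp2l1 was the factor called most often in these comparisons. Both are the 250 bases before the RefSeq transcript start in GRCm38.p6, 5′ to 3′ on the strand of the gene, with capitals for the Smad box CAGAC and for CACCTG, an E-box bound by Snail and Zeb factors, on either strand. Tfcp2l1 lies on the plus strand of chromosome 1 (its window is chr1:118627695-118627944) and Lncenc1 on the plus strand of chromosome 13 (chr13:97434720-97434969).
Tfcp2l1: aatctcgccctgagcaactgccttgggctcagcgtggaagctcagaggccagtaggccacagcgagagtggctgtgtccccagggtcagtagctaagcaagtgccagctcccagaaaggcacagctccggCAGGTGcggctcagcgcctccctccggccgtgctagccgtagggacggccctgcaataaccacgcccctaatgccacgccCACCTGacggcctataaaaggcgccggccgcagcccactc
Lncenc1: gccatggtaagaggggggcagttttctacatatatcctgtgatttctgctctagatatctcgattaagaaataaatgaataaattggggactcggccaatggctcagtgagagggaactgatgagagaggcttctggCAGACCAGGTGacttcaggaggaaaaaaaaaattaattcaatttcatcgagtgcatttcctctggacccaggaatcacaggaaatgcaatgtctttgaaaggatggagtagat

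The Tfcp2l1 window held CACCTG at 2 places, beginning -120 and -40 bases from the start, and no CAGAC. The Lncenc1 window held CAGAC at -113 directly followed by CACCTG on the other strand at -108. Of 32851 promoter windows of the same length, 42.2% held CAGAC, 17.2% held CACCTG, 2.06% held CACCTG at 2 or more places and 7.6% held both motifs. Neither window held the Krüppel-like box CACCC, found in 52% of windows, or the octamer ATGCAAAT, found in 1.6%. These matches describe the letters of the windows and are not binding sites. Of the 10 factors, 9 were found in the promoter table, Klf5 being the one with no entry.

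Sox2, Nanog, Zfp42 and Esrrb had almost no reads. Zfp42 (ENSMUSG00000051176.6, chromosome 8) had 0 reads in all 20 libraries, which allows at most the level of 3 reads in each. Sox2 (ENSMUSG00000074637.7, chromosome 3) had 1 read in Platr18 clone 16 replicate 2 and 1 in E1KD Platr18 KD replicate 1, and 0 in the other 18 libraries. Nanog (ENSMUSG00000012396.12, chromosome 6) had 9 reads in all 20 libraries together and never more than 2 in a library. Esrrb (ENSMUSG00000021255.17, chromosome 12), an orphan nuclear receptor that acts with the core factors, had 10 reads in all and never more than 2 in a library. These 4 factors were at or under 3 reads in every library. In Platr18 clone 12, where Platr18 stood at 3092 and 3096 CPM, Nanog had 2 reads and 1 read, and Esrrb, Sox2 and Zfp42 had none.

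**Figure D1:**
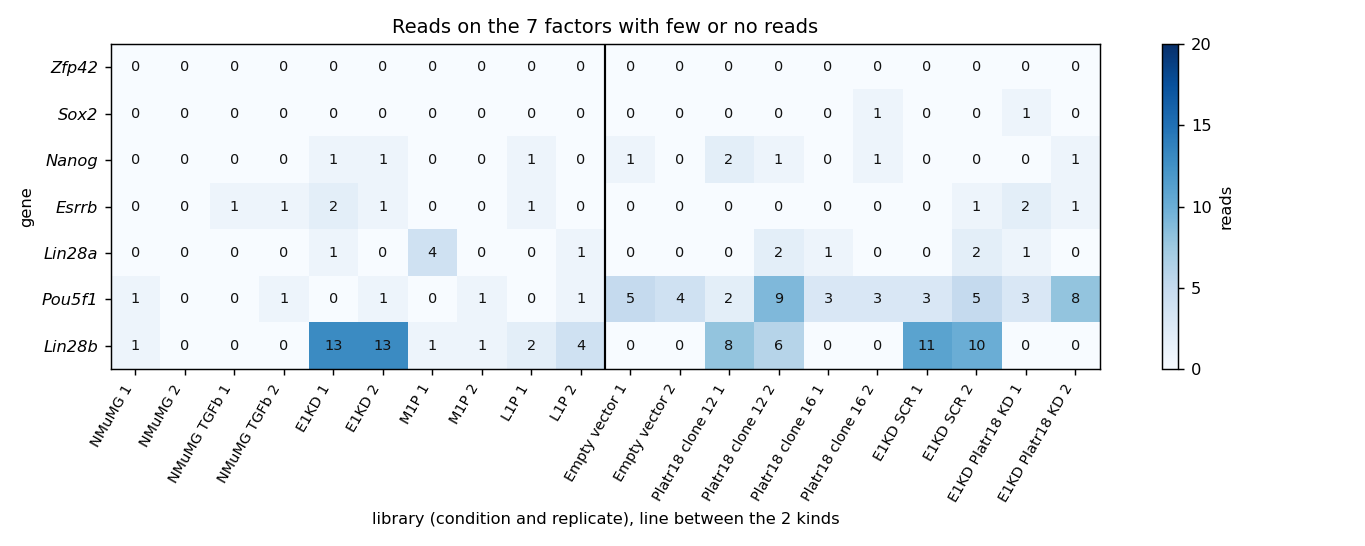
Number of reads on each of the 7 factors with few or no reads (rows) in the 20 libraries (columns), with a line between the 2 kinds of library; darker blue stands for more reads. Lin28b in E1KD (13 and 13 reads), E1KD SCR (11 and 10) and Platr18 clone 12 (8 and 6) is seen in both replicates, and Pou5f1 has single reads in the first kind and 2 to 9 reads in the second.

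Pou5f1 (ENSMUSG00000024406.16, chromosome 17), which encodes Oct4, had 0 or 1 read in each of the 10 libraries of the first kind and between 2 and 9 in each of the second. Within the second kind it had 5 and 4 reads in Empty vector, 2 and 9 in Platr18 clone 12, 3 and 3 in Platr18 clone 16, 3 and 5 in E1KD SCR, and 3 and 8 in E1KD Platr18 KD. The Empty vector values lay inside the range of clone 12, so no difference that followed Platr18 was detectable at this depth. Its highest level was 0.138 CPM. Lin28a (ENSMUSG00000050966.9, chromosome 4) had 12 reads in all, 4 of them in M1P replicate 1 and none in M1P replicate 2.

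Lin28b (ENSMUSG00000063804.8, chromosome 10: 45376620 to 45486395, minus strand) was untested and had reads in both replicates of several conditions. It had 13 and 13 reads in E1KD (0.248 CPM over both libraries), 1 and 0 in NMuMG, and 0 and 0 in NMuMG with TGFβ. M1P had 1 and 1, and L1P 2 and 4. Among the second kind, there were 11 and 10 reads in E1KD SCR (0.153 CPM over both libraries), 8 and 6 in Platr18 clone 12 (0.106 CPM), and 0 in both libraries of Empty vector, of Platr18 clone 16 and of E1KD Platr18 KD. The libraries of E1KD, E1KD SCR and clone 12 did not overlap with those of their controls. The level in E1KD was 27.1-fold that in NMuMG, with an exact 95% interval from 4.46 to 1113 that covers counting error only. Against a floor of 3 reads per library, Lin28b was at least 7.52-fold higher in E1KD SCR than in E1KD Platr18 KD, at least 3.63-fold higher in E1KD SCR and at least 2.501-fold higher in clone 12 than in the Empty vector cells. It did not follow Platr18 among the clones, since clone 16 held 813 and 820 CPM of Platr18 and no Lin28b read, nor along the tumor lines, where L1P held the most Platr18 of the first kind and 6 Lin28b reads in all. No model was fitted to these few reads.

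Tfcp2l1, Klf4 and Klf5 were on in all 20 libraries. Tfcp2l1 (ENSMUSG00000026380.10, chromosome 1: 118627945 to 118685168), a grainyhead-family transcription factor, ranged from 3.07 to 20.3 CPM. Klf4 (ENSMUSG00000003032.8, chromosome 4: 55527143 to 55532466, minus strand) ranged from 12.5 to 61.8 CPM. Klf5 (ENSMUSG00000005148.8, chromosome 14: 99298691 to 99315036) ranged from 6.60 to 54.1 CPM. Klf4 and Klf5 are Krüppel-like zinc finger factors. Divided by exon length, the levels in NMuMG were 0.330 CPM per kb for Tfcp2l1, 7.35 for Klf4, 6.79 for Klf5 and 0.408 for Lncenc1. In L1P they were 2.12, 20.04, 10.3 and 22.7 CPM per kb. Per kb and by condition mean, Klf4 stood above 75.4% of the 11712 protein-coding genes that passed the filter in NMuMG and above 92.1% in L1P. Tfcp2l1 stood above 11.8% and 37.8% of these genes, which leave out the silent ones.

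Near-identical copies were looked for by aligning each factor's longest transcript to all annotated transcripts, at 90% identity over at least 200 bases. Tfcp2l1, Lin28b, Pou5f1, Sox2, Esrrb, Lin28a and Lncenc1 had none. Klf4 had a copy of 242 bases in RP24-245G1.1 (at most 1.40 CPM), Klf5 one of 822 bases in 1 gene of at most 3.49 CPM, and Zfp42 one in Zfp42-ps1 (at most 0.0178 CPM). A stretch of Nanog resembled parts of 41 other genes. Reads of such stretches could have been shared out between genes by the authors' counting, so small values of Nanog are uncertain.

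**Figure D2:**
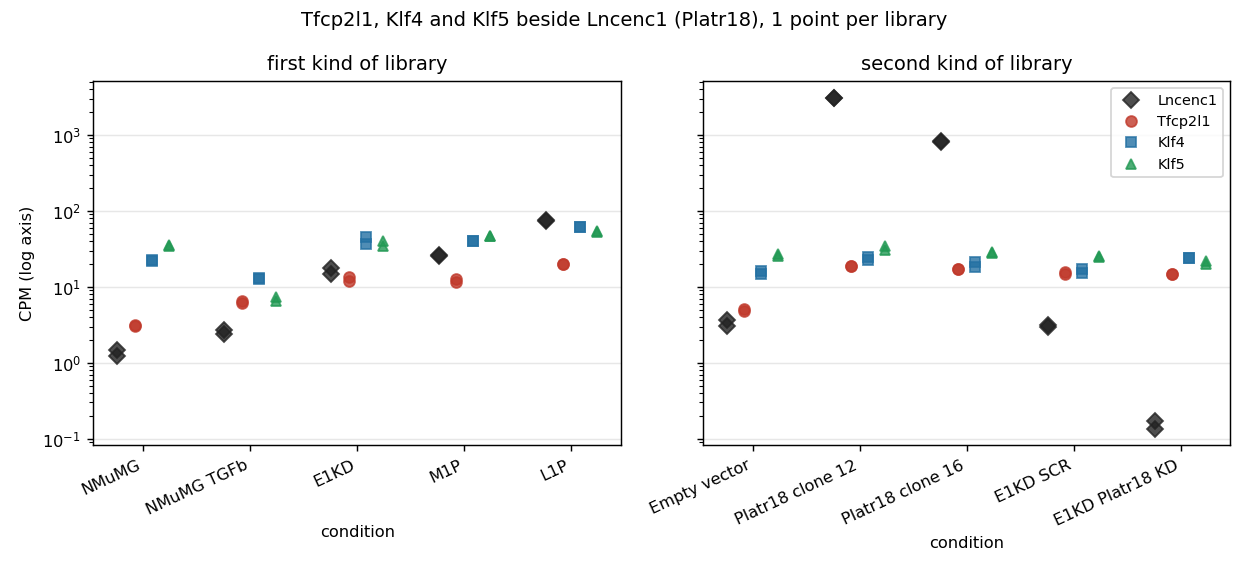
CPM on a log axis of Lncenc1 (diamonds), Tfcp2l1 (circles), Klf4 (squares) and Klf5 (triangles) in each condition, 1 point per library, with the first kind of library on the left and the second on the right. Tfcp2l1 is lowest in NMuMG and in Empty vector and lies between 14.5 and 18.6 CPM in the other conditions of the second kind, while Lncenc1 spans 0.136 to 3096 CPM there.

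Platr18 itself set the scale for the comparisons. Lncenc1 (ENSMUSG00000078952.9, chromosome 13: 97434970 to 97497007) had 1.24 and 1.45 CPM in NMuMG, 2.40 and 2.70 in NMuMG with TGFβ, 17.9 and 14.6 in E1KD, 25.7 and 26.2 in M1P, and 76.9 and 73.3 in L1P. Its levels in the second kind were 3.69 and 3.06 CPM in Empty vector, 3092 and 3096 in clone 12, 813 and 820 in clone 16, 2.92 and 3.10 in E1KD SCR, and 0.136 and 0.170 in E1KD Platr18 KD. The libraries of E1KD SCR and Empty vector overlapped. RP24-192J9.1, a pseudogene within the span of Lncenc1 on the opposite strand, had at most 8.85 CPM in any library.

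Silencing of hnRNP E1 was first compared with untreated NMuMG, the step at which the cells take on mesenchymal features. Tfcp2l1 rose 4.02-fold, Klf4 was 1.84-fold higher without reaching the fold limit, and the Klf5 libraries overlapped. A gene was called where the unadjusted limma p was under 0.001 and the change was 1 or more in size, up or down, on the log2(CPM + 1) scale. Of the 3 tested factors 1 was called, beside 9.44% of all genes tested. Tfcp2l1 had 3.15 and 3.07 CPM in NMuMG and 13.3 and 11.8 CPM in E1KD, and the libraries did not overlap. Its log2 fold change was 1.72 (SE 0.0708, limma adjusted p = 6.25e-11). Klf4 had 22.2 and 22.6 CPM in NMuMG and 45.3 and 37.05 CPM in E1KD. The log2 fold change was 0.84 (SE 0.0939, limma adjusted p = 3.5e-06). Klf5 had 34.8 and 35.8 CPM in NMuMG and 40.2 and 34.4 CPM in E1KD, which overlap, and its log2 fold change of 0.07 (limma adjusted p = 0.49) turned negative without E1KD replicate 1 and under both rescalings. With the adjusted p under 0.05 and no fold limit, 2 of the 3 factors and 56.6% of all genes passed. The median log2 fold change of all genes was 0.17. The 7 mesenchymal markers (Vim, Cdh2, Fn1, Snai1, Zeb1, Zeb2 and Twist1) summed to 535 and 556 CPM in NMuMG and to between 1349 and 1831 CPM in E1KD, and the part of this shift in the result was not tested. Because these are bulk libraries, more RNA per cell and more cells with the RNA cannot be told apart here or in any comparison.

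The same silencing could be read in the second kind of library, as E1KD SCR against Empty vector, where no difference in Platr18 passed the test. Tfcp2l1 had 5.06 and 4.83 CPM in Empty vector and 15.7 and 14.9 CPM in E1KD SCR, a 3.09-fold rise with no overlap. Its log2 fold change was 1.45 (SE 0.0708, limma adjusted p = 6.11e-10). Klf4 had 16.1 and 14.9 CPM in Empty vector and 15.3 and 16.9 CPM in E1KD SCR, and Klf5 had 27.2 and 25.2 CPM against 24.9 and 25.4 CPM. The libraries overlapped for both genes. The log2 fold changes were 0.05 (95% interval -0.152 to 0.251) for Klf4 and -0.05 (95% interval -0.229 to 0.122) for Klf5. Of the 3 factors 1 was called, beside 5.98% of all genes, and with the adjusted p alone the same count was reached beside 42.6%. Lncenc1 had a log2 fold change of -0.12 (limma adjusted p = 0.33). Tfcp2l1 was thus higher with the hnRNP E1 shRNA both where Platr18 was 12.1-fold higher and where no difference in Platr18 was detected. The mesenchymal markers summed to 656 and 695 CPM in Empty vector and to 768 and 832 CPM in E1KD SCR.

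TGFβ was compared with no treatment in NMuMG, and the factors moved apart. Klf5 fell 5.08-fold. It had 34.8 and 35.8 CPM in NMuMG and 7.31 and 6.60 CPM with TGFβ, a log2 fold change of -2.19 (SE 0.0819, limma adjusted p = 1.65e-11). Klf4 had 12.5 and 13.1 CPM with TGFβ and a log2 fold change of -0.76 (SE 0.0939, limma adjusted p = 7.04e-06), under the fold limit. Tfcp2l1 had 6.44 and 6.13 CPM with TGFβ, 2.02-fold its level in NMuMG, and a log2 fold change of 0.83 (SE 0.0708, limma adjusted p = 1.55e-07), also under the limit. Of the 3 factors 1 was called, beside 13.5% of all genes, and with the adjusted p alone 3 passed, beside 55.4%. Lncenc1 had a log2 fold change of 0.60, likewise under the limit. TGFβ and hnRNP E1 silencing differed from each other for all 3 factors: E1KD was above TGFβ-treated NMuMG by 0.89 for Tfcp2l1 (limma adjusted p = 4.69e-08), by 1.60 for Klf4 (limma adjusted p = 1.59e-09) and by 2.26 for Klf5 (limma adjusted p = 8.41e-12) on the log2 scale. The mesenchymal markers summed to 1390 and 1605 CPM with TGFβ, and Krt19, a luminal keratin, averaged 18.1 CPM there and 485 CPM in NMuMG. Their part in the result was not tested.

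Along the tumor lines Platr18 rose at the last step, and no factor was called. Between M1P and E1KD the log2 fold change of Lncenc1 was 0.65 (SE 0.0923, limma adjusted p = 7.74e-05), a ratio of 1.60 that was under the fold limit. Between M1P and E1KD, Tfcp2l1 (12.5 and 11.6 CPM in M1P) and Klf4 (40.7 and 40.4 CPM) overlapped with E1KD, and Klf5 had 47.0 and 46.2 CPM in M1P, a log2 fold change of 0.32 (SE 0.0819, limma adjusted p = 0.00606). The count was 0 of 3, beside 3.59% of all genes called by limma, while 1 of 3 had an unadjusted or adjusted p under 0.05, beside 49.1% of all genes by the adjusted p. Between L1P and M1P, Lncenc1 rose by 1.497 on the log2 scale (SE 0.0923, limma adjusted p = 4.97e-08). Tfcp2l1 had 20.3 and 19.8 CPM in L1P, 1.66-fold its level in M1P, with a log2 fold change of 0.69 (SE 0.0708, limma adjusted p = 9.25e-06). Klf4 had 60.4 and 61.8 CPM in L1P, with a change of 0.58 on that scale (SE 0.0939, limma adjusted p = 0.000571). Klf5 had 54.1 and 52.5 CPM, a log2 fold change of 0.19 (limma adjusted p = 0.136). None of these 3 changes reached the fold limit. The count was again 0 of 3, beside 1.21% of all genes called, whereas 2 of 3 passed with the adjusted p alone, beside 18.5%. The summed luminal markers ran from 2925 to 2975 CPM in M1P and from 1827 to 1845 CPM in L1P. Krt8, Krt18, Krt19 and Krt7 were lower in L1P, whereas Cdh1 was higher, averaging 70.9 CPM in M1P and 110 CPM in L1P. The summed mesenchymal markers ran from 1444 to 1447 CPM in M1P and from 1484 to 1489 CPM in L1P. Fn1, one of the mesenchymal markers, averaged 43.9 CPM in M1P and 135 CPM in L1P, while Vim and Snai1 averaged lower in L1P. The part of these markers in the result was not tested.

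Overexpression of Platr18 was compared with Empty vector to read the factors where Platr18 was raised without the hnRNP E1 shRNA. Both overexpressing lines are single clones, so an effect of Platr18 and an effect of picking single clones cannot be told apart. Tfcp2l1 rose 3.61-fold and was the factor called. It had 18.61 and 18.56 CPM in clone 12, 16.9 and 17.4 CPM in clone 16, and 5.06 and 4.83 CPM in Empty vector. Its log2 fold change was 1.67 (SE 0.0613, limma adjusted p = 1.64e-10). By clone it was 1.72 in clone 12 and 1.61 in clone 16, and the clones differed by -0.11 (95% interval -0.262 to 0.0423), although Platr18 in clone 12 was well above clone 16. Klf4 had 22.6 and 24.6 CPM in clone 12 and 18.4 and 21.4 CPM in clone 16, above both Empty vector libraries, with a log2 fold change of 0.46 (SE 0.0813, limma adjusted p = 0.000744). Klf5 had 34.4 and 30.7 CPM in clone 12 and 27.5 and 28.7 CPM in clone 16, with a log2 fold change of 0.20 (SE 0.0709, limma adjusted p = 0.0467). Of the 3 factors 1 was called, beside 1.46% of all genes, and with the adjusted p alone 3 passed, beside 28.8%. The mesenchymal markers summed to 814 and 917 CPM in clone 12 and to 868 and 910 CPM in clone 16. Both were above the 656 and 695 CPM of Empty vector. Vim was most of each sum, averaging 712 CPM in clone 12, 770 in clone 16 and 580 in Empty vector. Snai1 alone was lower in clone 12, listed at 0 against 0.0782 CPM in Empty vector. In clone 16 Snai1 was higher instead, averaging 0.202 CPM. The part of these markers in the result was not tested.

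Silencing of Platr18 in E1KD gave no call for any factor. Tfcp2l1 had 14.52 and 14.55 CPM in E1KD Platr18 KD and 15.7 and 14.9 CPM in E1KD SCR, a log2 fold change of -0.07 (95% interval -0.218 to 0.086, limma adjusted p = 0.621). Platr18 had 0.136 and 0.170 CPM in E1KD Platr18 KD and 2.92 and 3.10 CPM in E1KD SCR. It fell by 1.80 on the same scale (SE 0.0923, limma adjusted p = 6.92e-09), which understates changes of low genes. Klf4 had 23.99 and 24.03 CPM in the silenced libraries and 15.3 and 16.9 CPM in E1KD SCR, a log2 fold change of 0.55 (SE 0.0939, limma adjusted p = 0.000821). Klf5 had 21.6 and 20.2 CPM in the silenced libraries and 24.9 and 25.4 CPM in E1KD SCR, a log2 fold change of -0.26 (SE 0.0819, limma adjusted p = 0.0407). Neither reached the fold limit. None of the 3 factors was called by limma, beside 1.48% of all genes, and 2 had an unadjusted and an adjusted p under 0.05, beside 19.5% of all genes by the adjusted p. Klf4 was therefore above its control both in the clones that overexpress Platr18 and in the cells silenced for it. The mesenchymal markers summed to 520 and 530 CPM in the silenced libraries, below E1KD SCR. Vim, most of the sum, averaged 391 CPM there and 652 CPM in E1KD SCR. Cdh2 alone of the 7 was higher after silencing, at 98.0 against 86.2 CPM, and the part of these markers was not tested.

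**Figure D3:**
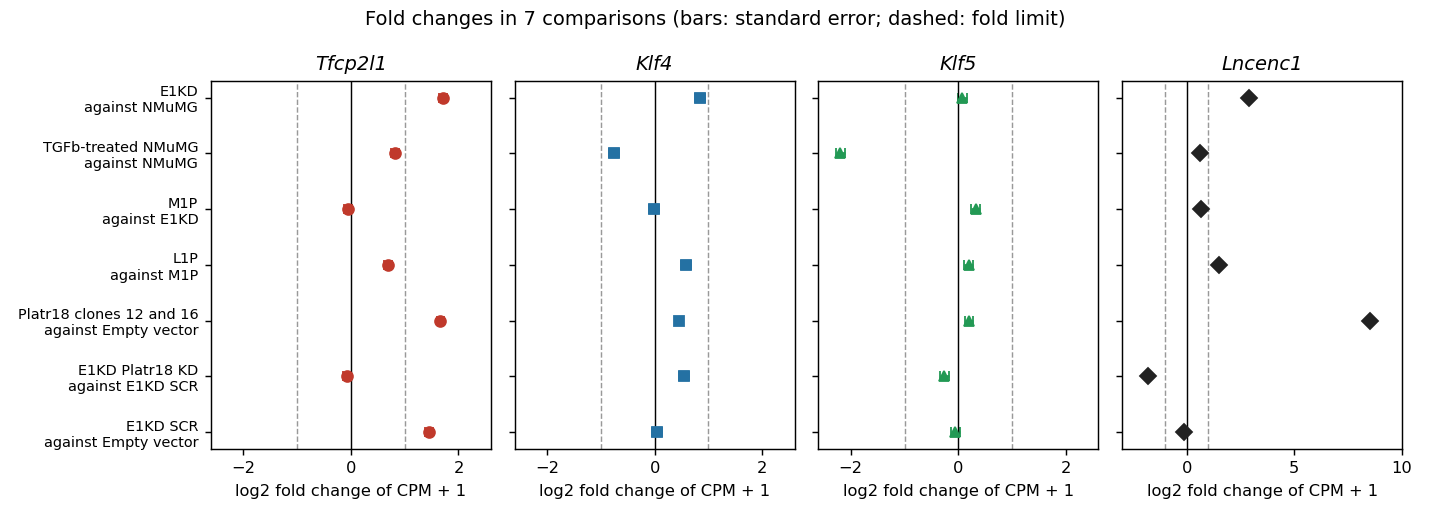
Log2 fold change of CPM + 1 (points) with its limma standard error (bars) for Tfcp2l1, Klf4, Klf5 and Lncenc1 in the 7 comparisons, with dashed lines at the fold limit of 1 in either direction; the axis of Lncenc1 is wider. Tfcp2l1 passes the limit in 3 comparisons (1.72, 1.67 and 1.45), Klf5 in 1 (-2.19) and Klf4 in none.

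The order of levels within each kind of library differed between the factors. In the first kind, Tfcp2l1 was lowest in NMuMG, followed by NMuMG with TGFβ, then by M1P and E1KD, whose difference of 0.05 on the log2 scale was within the spread (limma adjusted p = 0.573), and was highest in L1P. In the second kind it was lowest in Empty vector, and the steps from E1KD Platr18 KD to E1KD SCR (limma adjusted p = 0.621), on to clone 16 (limma adjusted p = 0.0826) and on to clone 12 (limma adjusted p = 0.24) did not pass an adjusted p of 0.05. Klf4 was lowest with TGFβ and highest in L1P in the first kind, with M1P and E1KD not told apart (limma adjusted p = 0.938). Among the second kind it was lowest in Empty vector and E1KD SCR, which overlapped (limma adjusted p = 0.728), and highest in clone 12 and E1KD Platr18 KD, which overlapped too (limma adjusted p = 0.87). The step of Klf4 from clone 16 to clone 12 did not pass an adjusted p of 0.05 (limma adjusted p = 0.0556). Klf5 was lowest with TGFβ and highest in L1P in the first kind, with NMuMG and E1KD (limma adjusted p = 0.49) and M1P and L1P (limma adjusted p = 0.136) not told apart. Its order in the second kind ran from E1KD Platr18 KD to clone 12, and neither E1KD SCR and Empty vector (limma adjusted p = 0.656), nor Empty vector and clone 16 (0.444), nor the 2 clones (0.061) were told apart as neighbours. Over the 10 condition means, centred within each kind, Pearson's r with Lncenc1 was 0.567 for Tfcp2l1, 0.43 for Klf4 and 0.397 for Klf5, as a description of means that share libraries and controls.

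The genes whose pattern was most like each factor were taken by Pearson's r of log2(CPM + 1) over the same 10 centred means. For Tfcp2l1 they were Prkaa1 (r = 0.948), Nars2 (0.942) and RP23-149L10.1 (0.94). For Klf4 they were Tmem126a (0.965), RP24-245G1.1 (0.961), which is the gene that shares 242 bases with Klf4, and Slc12a2 (0.954). For Klf5 they were Dlgap5, a mitotic spindle protein (0.99), RP23-409B1.1 (0.99) and RP24-324L19.3 (0.987). For Lncenc1 they were RP23-419K14.11 (0.944), Sec11a (0.938) and Rccd1 (0.936). No factor was among the 3 genes most like Lncenc1. Those 3 were the highest of 17106 tested genes over only 10 means, so nothing is concluded from that absence.

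The wider pluripotency network held silent, restricted and broadly expressed genes. Of 37 further genes of the network, 18 were at or under 3 reads in every library, 7 were above that level in some library but failed the filter, and 12 were tested. The silent group held Nr0b1, Dppa3, Tcl1, Mycn and Pou3f1, which had no read in any library, and Utf1, Fgf4, Otx2, Sall4 and Tbx3, which had at most 0.0141 CPM. The highest were Il6st (the gp130 receptor chain), Myc, Stat3, Esrra and Tet2, each above 10 CPM in every library and none of them specific to stem cells.

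**Figure D4:**
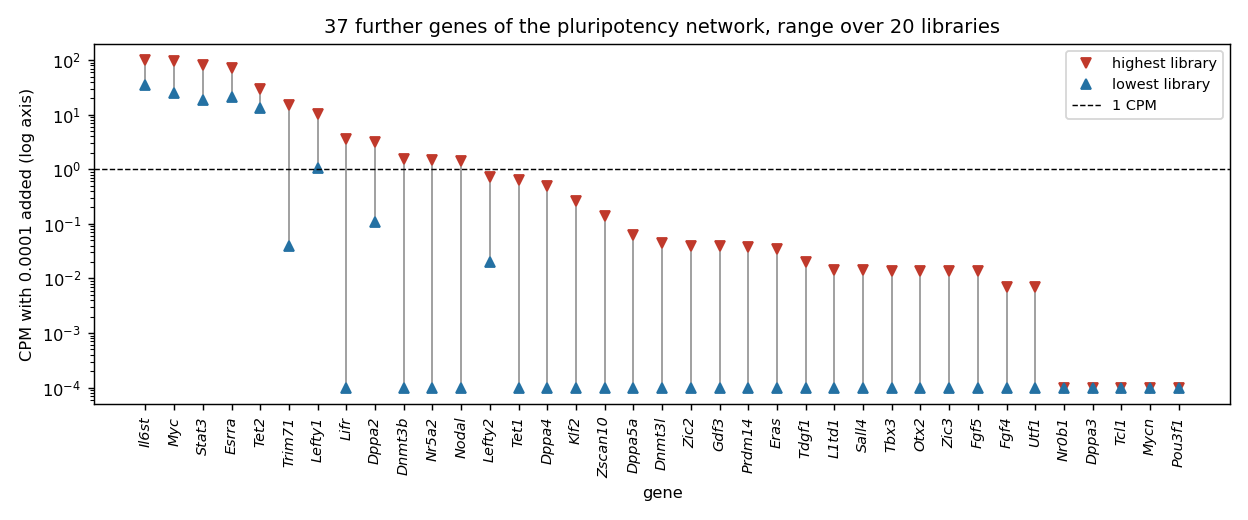
Highest (red) and lowest (blue) CPM over the 20 libraries for 37 further genes of the pluripotency network, on a log axis with the 0.0001 that was added to every deposited value and a dashed line at 1 CPM. Il6st, Myc, Stat3, Esrra and Tet2 stay above 10 CPM in every library, whereas 5 genes on the right have no read in any.

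Among the 12 tested network genes, 3 were called between E1KD and NMuMG, with 1 higher and 2 lower and a median log2 fold change of 0.25, beside a median of 0.17 for all genes, of which 9.44% were called. The first was Trim71, a stem-cell ubiquitin ligase and let-7 target, which fell from 14.6 and 15.2 CPM to 0.473 and 0.425 CPM, a log2 fold change of -3.46 (limma adjusted p = 2.75e-14). Lifr, the LIF receptor chain, was listed at 0 in both NMuMG libraries and had 3.66 and 2.40 CPM in E1KD. Nr5a2, a nuclear receptor that can stand in for Oct4 in reprogramming, had 1.49 CPM in both NMuMG libraries and 0.0198 and 0.0371 CPM in E1KD. After TGFβ 4 were called, with 1 higher and 3 lower and a median of -0.01, beside -0.08 for all genes, of which 13.5% were called: Trim71 and Nr5a2 fell, Lefty1, a Nodal antagonist, fell 2.604-fold, and Stat3 rose 3.23-fold. In M1P against E1KD 2 were called, beside 3.59% of all genes, with Nodal higher and Lifr lower. In L1P against M1P 1 was called, beside 1.21% of all genes. It was Nodal, which had 1.40 and 1.28 CPM in M1P and at most 0.0198 CPM in every other library. Nodal passed the filter only through M1P, Nr5a2 only through NMuMG, and Lifr only through E1KD and E1KD SCR. Their calls in comparisons with these groups, in either kind of library, follow in part from that filter. Counts that hold them cannot be weighed against the shares of all genes.

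In the second kind of library, none of the 12 was called by limma where Platr18 was overexpressed, beside 1.46% of all genes. The median log2 fold change was -0.18, and with the adjusted p alone 6 passed, beside 28.8%. E1KD SCR against Empty vector gave 2, beside 5.98% of all genes, with Trim71 lower (0.487 and 0.508 CPM against 9.55 and 9.36 CPM) and Lifr higher (2.23 and 2.14 CPM against 0 and 0.0146 CPM). Platr18 silencing gave 1, beside 1.48% of all genes. It was Lifr, which fell to 0.0137 and 0.0478 CPM with a log2 fold change of -1.63 (limma adjusted p = 2.53e-08). Of the genes around Lin28 and let-7, 13 of the 14 listed were in the table and all 13 were tested. In E1KD 1 was called, Trim71, beside 9.44% of all genes, at a median log2 fold change of -0.08 over the 13. After TGFβ 4 were called, beside 13.5% of all genes, at a median of -0.16: Trim71 and Hmga1 lower, Hmga2 and Arid3a higher. E1KD SCR gave 2, beside 5.98% of all genes, Trim71 and Arid3a, both lower than in Empty vector. None of the 13 was called by limma in the clones, after Platr18 silencing, in M1P or in L1P. The shares of all genes called there were 1.46%, 1.48%, 3.59% and 1.21%. With the adjusted p alone 4, 4, 8 and 3 passed, beside 28.8%, 19.5%, 49.1% and 18.5% of all genes.

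Of the other Krüppel-like genes, 9 of 15 were tested, and their median log2 fold change was 0.33 in E1KD and 0.45 after TGFβ. In E1KD 1 was called and after TGFβ 2, beside 9.44% and 13.5% of all genes. Klf9 rose 4.04-fold in E1KD (from 6.14 and 7.52 CPM to 30.4 and 24.8 CPM) and 3.95-fold after TGFβ, and Klf11 rose 2.38-fold after TGFβ. None of the 9 was called by limma in the other 5 comparisons, beside between 1.21% and 5.98% of all genes. With the adjusted p alone, 7 passed in the clones and 7 in E1KD SCR, beside 28.8% and 42.6% of all genes. Fewer passed in M1P (3, beside 49.1%), in L1P (3, beside 18.5%) and after Platr18 silencing (2, beside 19.5%). None of the 5 Sox genes listed beside Sox2 (Sox1, Sox3, Sox15, Sox17 and Sox21) reached 1 CPM in any library. Of the 26 genes within 500 kb of Lncenc1, 12 were tested, with 1 called in E1KD and 2 after TGFβ, beside the same 9.44% and 13.5%. Enc1, 182 kb away, rose 2.22-fold in E1KD and 2.24-fold after TGFβ, where RP23-79J21.2 fell 2.99-fold. In the clones none of the 12 was called by limma, beside 1.46% of all genes, and 1 passed with the adjusted p alone, beside 28.8%. Enc1 had 63.3 and 64.3 CPM in clone 12, 45.8 and 50.0 CPM in clone 16 and 34.3 and 34.1 CPM in Empty vector. It also had 54.0 and 55.4 CPM in E1KD SCR, where no difference in Platr18 from Empty vector was detected. In E1KD Platr18 KD, where Platr18 was lowest, Enc1 had 51.8 and 53.4 CPM.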

How the data were processed

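RNA-seq libraries of 10 conditions, 2 from each, were analysed. Per the study's methods and processing notes, the authors aligned reads with Bowtie2 2.2.5 to GRCm38 p6 and quantified genes with an expectation-maximization method. They deposited CPM values for 54986 genes, to which 0.0001 had been added. The worth of 1 read was the most frequent low value of a library. Between 92.9% and 98.3% of values up to 20 reads were whole within 0.1 read, so counts were not recovered and reads are given only for single genes.

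Groups came from the sample labels, and 0 columns of other samples were present. Genes that reached 1 CPM in 2 or more libraries were tested on log2(CPM + 1) with limma 3.58.1 in R 4.3.3 (lmFit, eBayes with trend), in 1 fit of 20 libraries and 10 condition means. This scale understates changes of low genes. Calls needed an unadjusted p under 0.001 and a change of 1 or more in size on this scale. Adjusted p-values are Benjamini-Hochberg over 17106 genes, and the largest among called genes was 0.00633. The fit was tested on simulated data.

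The factors and gene lists were chosen with earlier results of these data known. All 10 factors and Lncenc1 were named, and from each list at most 4 called genes with the smallest p per comparison. Silent and highest genes, and Lifr, Twist1 and Dppa2 under the other observations, were named after their values were seen. Sequences are RefSeq's, GRCm38.p6. Copies were searched with BLAST 2.17.0. Alternatives covered the pseudocount, filter, scaling, libraries in the fit, replicate number as a block, call rule and each library left out.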

Additional observations from a re-analysis of the deposited data

Results flagged for a closer look

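The effect of hnRNP E1 silencing differed between the 2 kinds of library for 1 of the 3 tested factors. For Klf4 the log2 fold change of E1KD against NMuMG exceeded that of E1KD SCR against Empty vector by 0.79 (SE 0.133, limma adjusted p = 0.000627), and by 0.65 without E1KD replicate 1. For Platr18 the same difference was 2.99 (SE 0.131, limma adjusted p = 1.98e-09), and 2.86 without that library. For Tfcp2l1 it was 0.26 (limma adjusted p = 0.0756) and for Klf5 0.12 (limma adjusted p = 0.451), neither past an adjusted p of 0.05. E1KD SCR also carries a scrambled shRNA and Empty vector an empty vector, so the kind of library and these constructs cannot be told apart.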

How the results depend on the processing

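Of 102 recomputed counts of called factors, 96 stayed within 1.5 times the reported count. The other 6 came from a call at an adjusted p under 0.05, which drops the fold limit: 2 factors in E1KD, 3 after TGFβ, 1 in M1P, 2 in L1P, 3 in the clones and 2 after Platr18 silencing. Of 380 recomputed log2 fold changes, 369 kept their direction and side of the threshold and 11 of small, uncalled changes reversed, and the cause was not tested. With median-of-ratios factors, Klf5 in E1KD was -0.14, and Tfcp2l1 and Klf4 in M1P were 0.15 and 0.20. With equal sums these were -0.11, 0.11 and 0.16. The first rescaling moved the median of all genes by -0.15 in E1KD and by 0.16 in M1P. With each library left out in turn, Klf5 in E1KD ran from -0.039 to 0.18, Tfcp2l1 in M1P from -0.13 to 0.026, Klf4 in M1P from -0.16 to 0.13 and Klf4 in E1KD SCR from -0.020 to 0.12. The difference between the effects of hnRNP E1 silencing in the 2 kinds, tried under alternatives chosen after seeing the data, turned to -0.048 and -0.076 for Klf5 with the rescalings. Without E1KD replicate 2 it passed an adjusted p of 0.05 for Tfcp2l1 (0.34) and Klf5 (0.23).

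Deviations of libraries with the same replicate number correlated between -0.125 (clone 16 and Empty vector) and 0.127 (clone 12 and Empty vector), so the numbers do not pair the libraries. With the replicate block the factors called were 1 in E1KD, 1 after TGFβ, 0 in M1P, 0 in L1P, 1 in the clones, 0 after Platr18 silencing and 1 in E1KD SCR, as without it. A floor of 10 reads put 6 rather than 4 factors at or under it in every library. Depth limits the 7 factors with few reads, for which a level under 3 reads could not be told from none.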

Other observations

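Lifr and Twist1 partly shared the pattern of Lin28b, and were picked after their values were seen. Lifr had 3.66 and 2.40 CPM in E1KD and 2.23 and 2.14 CPM in E1KD SCR, was listed at 0 in both libraries of M1P and of L1P, and had at most 0.0478 CPM in E1KD Platr18 KD. Twist1, a mesenchymal transcription factor, averaged 0.344 CPM in E1KD and 0.317 CPM in E1KD SCR, was listed at 0 in M1P and L1P, and averaged 0.0103 CPM in E1KD Platr18 KD. Lin28b had 26 reads in E1KD and 21 in E1KD SCR, 2 in M1P, 6 in L1P and 0 in E1KD Platr18 KD. In clone 12, where Lin28b had 14 reads, Lifr had 0.0298 and 0.0154 CPM and Twist1 was listed at 0.

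Dppa2, a chromatin factor of pluripotent cells, was likewise picked after its values were seen. It was not called in any of the 7 comparisons, on a scale that understates changes of low genes. It had 0.106 and 0.151 CPM in NMuMG, 0.728 and 0.444 in E1KD, 1.76 and 1.65 in M1P, and 3.06 and 3.20 in L1P, the same order as Platr18 in these 4 conditions. In the second kind of library it had 2.45 and 2.53 CPM in clone 16 but 0.297 and 0.276 CPM in clone 12 and 0.329 and 0.521 CPM in Empty vector. It had 0.636 and 0.492 CPM in E1KD SCR and 0.163 and 0.184 CPM in E1KD Platr18 KD, a 3.25-fold lower mean (limma adjusted p = 0.00468).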
